A study of Mus musculus with 32 samples.

Results

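Translation initiation and elongation factors are the proteins that start a ribosome on an mRNA and move it along. Their genes were followed here in mouse gastrocnemius (GAS) muscle, the large calf muscle, after the sciatic nerve was cut. Members were the protein-coding genes of the deposited table whose symbol begins with Eif followed by a digit from 1 to 6, or with Eef followed by 1 or 2. There were 68 such genes of 33397 in the table, of which 18220 were protein-coding, and 9 further pattern matches were not protein-coding and were left out. The pattern also takes in factors' regulators, such as the Eif4e-binding proteins, the eIF2 kinases and the enzymes that modify eEF1A and eEF2. Expression entered as FPKM, the fragments of a gene scaled by the length of its exons and by the size of the library. Of the members, 67 reached an FPKM of 0.1 in 4 or more samples and were tested, and 66 had an FPKM above 0 in all 32 samples. The member that was not tested was Eif4e1b, an eIF4E form known from oocytes, which held 0 to 9 fragments per sample.

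The RNA came from whole GAS muscles of male C57BL/6 mice (C57BL/6J in the study's methods), 6 to 8 weeks old and with no genetic change, whose sciatic nerve had been transected by taking out a short piece. There were 8 groups of 4 muscles, at 0, 1, 3, 5, 7, 14, 21 and 28 d, and all 7 comparisons below share the 0 d samples. The labels list the nerve transection for 0 d as well as for the later groups. Recovered depth ran from 14199902 to 17561584 fragments per sample. Muscle fibre genes were abundant in every group, with a summed FPKM of Acta1, Ckm, Myh4, Tnnt3 and Mb of 19522 to 35690, although the extraction text of the labels speaks of retinas. Of 4 photoreceptor genes, none exceeded an FPKM of 0.401 in any sample. At 3 d, 1 sample stood apart from the other 3 (first principal component -18.5, against 1.15 to 6.40), and results that rest on it are given with and without it. A whole muscle holds many cell types, and fewer cells of a type and less RNA per cell cannot be told apart in it.

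Initiation begins when eIF2 brings the initiator tRNA to the small ribosomal subunit, with eIF1, eIF1A, eIF3 and eIF5 on board. The eIF4F complex, made of the cap-binding eIF4E, the scaffold eIF4G and the helicase eIF4A, then loads that subunit onto the capped mRNA, and the Eif4ebp proteins hold eIF4E back while they are not phosphorylated. In elongation, eEF1A delivers aminoacyl-tRNA and eEF2 moves the ribosome forward by a codon. Adult skeletal muscle fibres are known for using the eEF1A2 form of eEF1A, which replaces the widely expressed eEF1A1 in muscle after birth.

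Each time point was compared with 0 d by limma on log2(FPKM + 1), and a gene was called at a Benjamini-Hochberg adjusted p under 0.05 over the 22071 genes tested together with a change of at least 1.5-fold. Most translation factors that changed were higher post denervation, and the number was largest from 3 to 7 d. At 1 d, 12 members were higher and 1 was lower, where 6.34% of all genes tested were higher and 2.49% were lower. At 3 d, 35 of the 67 members were higher and 0 were lower, against 13.2% and 6.03% of all genes, and 2 members were lower by limma at an unadjusted p under 0.05. Without the 3 d sample that stood apart, 37 were higher and 0 lower, against 15.4% of all genes higher.

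The share of members that were higher lay above that of all genes at each later time point, and it was smaller from 14 d on. At 5 d, 35 members were higher and 1 lower, against 14.9% and 3.86% of all genes, and at 7 d the counts were 37 and 1, against 15.4% and 4.1%. At 14 d, 26 were higher and 3 lower (14.6% and 3.83% of all genes). At 21 d the counts were 23 and 5 (11.8% and 3.93%), and at 28 d 22 and 4 (14.2% and 4.1%). In 49 members all 4 samples of 3 d lay above all 4 of 0 d, against 23.0% of all genes tested, and in 46 members the same held for 28 d, against 36.6%. The mean of 28 members (41.8%) was highest at 3 d, against 16.9% of the 11943 genes whose FPKM averaged 1 or more. Judged by the adjusted p alone, with no fold criterion, 53 members were higher and 2 lower at 3 d, against 29.0% and 14.3% of all genes, and 47 and 6 at 28 d, against 37.8% and 9.85%. On that rule 3 members were lower at 1 d, where 9.01% of all genes were, and 2 at 5 d, where 9.52% were. A moderated F test over all time points passed for 62 of the 67 members, against 63.2% of all genes tested. The shares of all genes, here and below, include many low genes, which reach a call less easily on this scale. In a fit limited to the 13405 genes with an FPKM of 1 or more in 4 or more samples, 11325 passed the F test. In that fit 2876 genes were higher at 3 d and 3063 at 28 d, so part of the members' excess goes with their level.

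FPKM divides by the library total, and the centre of all genes moved with time. Over the 11943 genes the log2 fold change had a median of 0.12 at 1 d, 0.20 at 3 d and 0.30 at 28 d, while the members' median was 0.22, 0.60 and 0.41. Mitochondrially encoded genes took 14.5% to 18.2% of the fragments at 0 d and 6.70% to 17.1% in the later samples. After median-ratio scaling, which centres the genes on each other, the median of all genes was 0.03 at 3 d and 0.01 at 28 d, and that of the members 0.38 and 0.06. On that scale 24 members were higher and 2 lower at 3 d, against 9.02% and 9.17% of all genes, and the 24 were also among the 35. At 1 d the counts were 6 and 2 (4.14% and 4.69% of all genes), at 5 d 11 and 2 (6.71% and 7.7%), at 7 d 15 and 4 (7.16% and 7.92%), at 14 d 10 and 5 (6.59% and 7.55%) and at 21 d 6 and 6 (6.45% and 7.17%). At 28 d, 4 were higher and 6 lower on that scale, against 6.59% and 8.11% of all genes. The share of higher against lower calls among the members at 28 d therefore turned with the scaling. Of the 67 members, 7 were called higher at all 7 time points as deposited, against 1.92% of all genes tested, and 1 on that scale, against 0.776%, and calls below are as deposited unless that scale is named.

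Other cell types of the muscle also changed over these days. All 5 macrophage genes listed (Cd68, Adgre1, Csf1r, Cd14 and Mrc1) were higher at 3 d and at 28 d. Their summed FPKM was 27.2 to 36.1 at 0 d, 156 to 249 at 3 d and 72.7 to 82.3 at 28 d. Of the 5 muscle fibre genes, 3 were lower at 3 d and 4 at 28 d, with 1 higher at 28 d. Of 4 satellite cell genes 1 was higher at 3 d, 0 of 4 fibroblast genes were called, and of 4 Schwann cell genes 2 were lower, while 2 of 3 endothelial genes were lower. At 28 d, 1 satellite cell gene was higher, 1 Schwann cell gene was higher and 2 were lower, 1 endothelial gene was lower and no fibroblast gene was called. The fibroblast sum was 349 to 456 FPKM at 0 d and spread from 228 to 546 at 3 d, with a mean of 53.7 and then 122 FPKM for Col3a1. None of the macrophage genes was at 0 in the muscles of 0 d, where Cd14 had the lowest mean FPKM, 3.17. The part of these cell types in the results below was not tested.

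**Figure D1:**
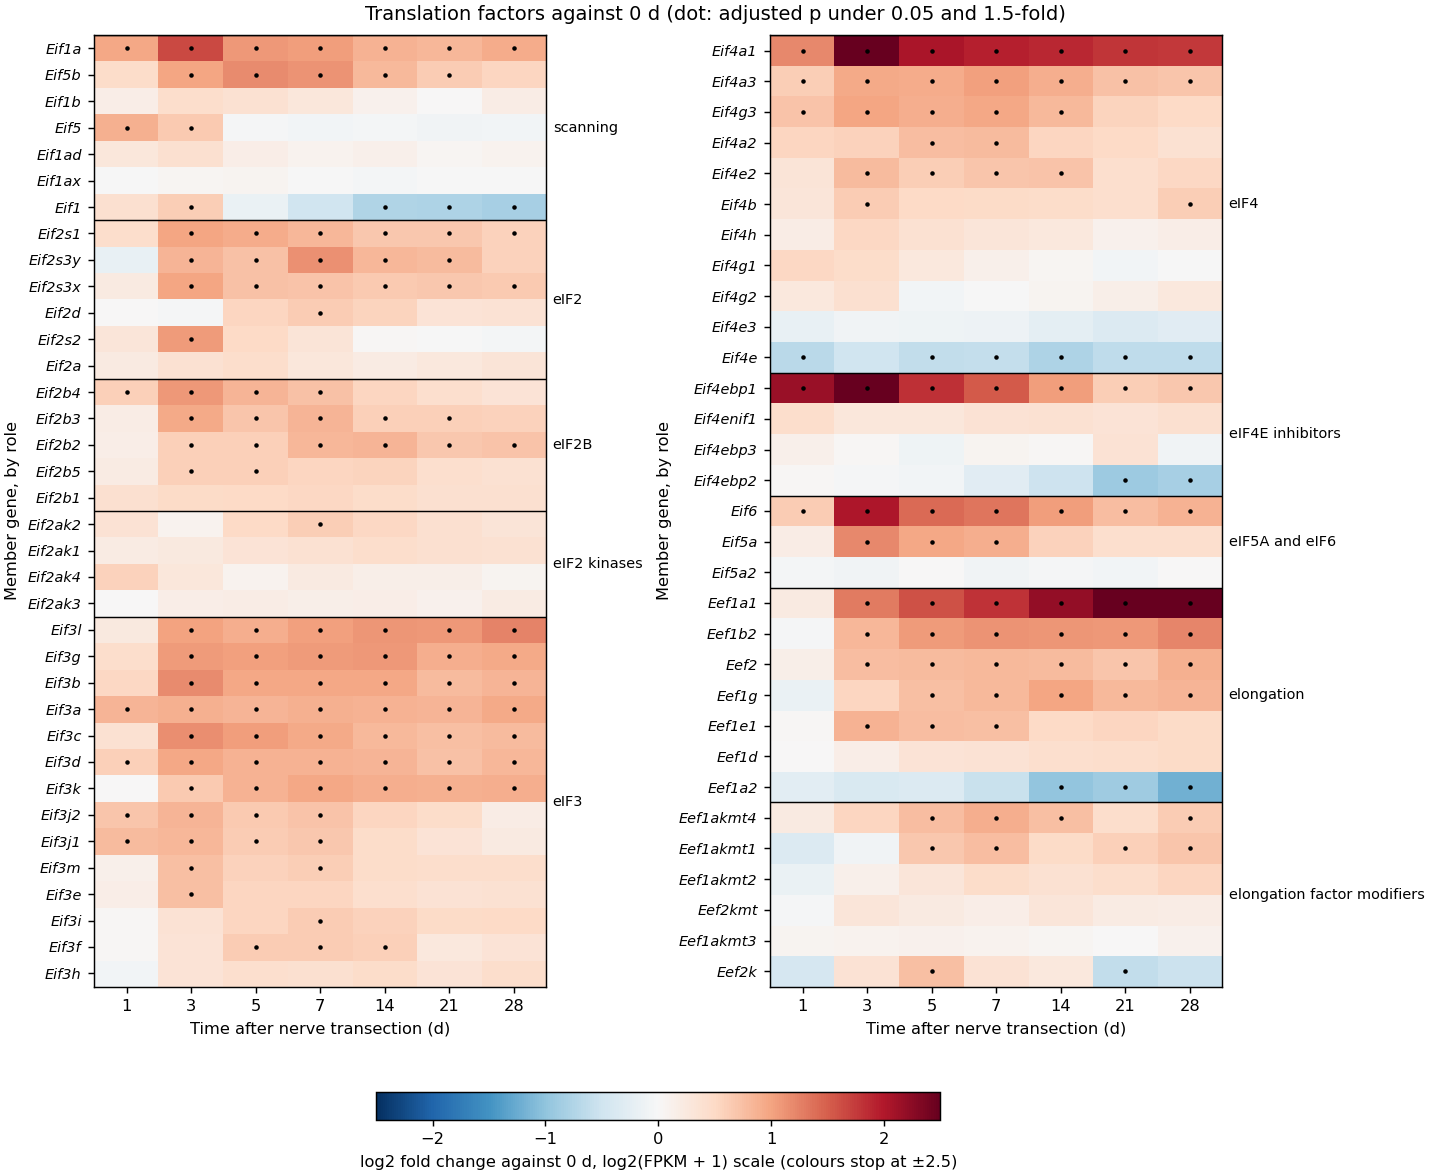
Log2 fold change of the 67 tested translation factors against 0 d on the log2(FPKM + 1) scale, in rows by role and in columns by time after nerve transection (d), with a dot where a gene was called. Red fills most of the 3, 5 and 7 d columns, Eif4ebp1, Eif4a1, Eif6 and Eef1a1 reach the deepest red, and Eif4e, Eef1a2, Eif1, Eif4ebp2 and Eef2k hold the blue cells called at 21 d.

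The clearest change among the elongation factors was an exchange of the eEF1A forms. Eef1a1 (ENSMUSG00000037742; chromosome 9, 78478449 to 78489151, minus strand, GRCm38) encodes the form found in most tissues. Its 4 samples read 303, 331, 345 and 395 FPKM at 0 d, and 300.4, 374, 442 and 517 at 1 d. At 3 d they read 575, 841, 995 and 1063, the lowest being the sample that stood apart. By 7 d all 4 lay between 1124 and 1249, and at 28 d they read 2206, 2229, 2279.9 and 2643. From 3 d on, no sample overlapped the 0 d range, and the mean was higher at each later time point than at the one before. Eef1a1 rose by a log2 fold change of 1.30 at 3 d (standard error 0.14, adjusted p = 8.72e-09 by limma) or 1.49 without that sample, 1.80 at 7 d, 2.20 at 14 d and 2.77 at 28 d (adjusted p = 2.07e-15). The mean FPKM at 28 d was 6.81 times that at 0 d, and median-ratio scaling left a log2 fold change of 2.38.

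Eef1a2 (ENSMUSG00000016349; chromosome 2, 181147653 to 181157014, minus strand) went the other way. Its samples read 559.8, 616, 649 and 706 FPKM at 0 d, 434, 439.7, 496 and 571 at 3 d, and 361, 398, 459 and 509 at 7 d. At 14 d they were 304, 309, 325 and 341, and at 28 d they were 234, 283, 287 and 294. From 5 d on, all samples lay below all 0 d samples. Eef1a2 fell by 0.98 on the log2 scale at 14 d, by 0.89 at 21 d and by 1.20 at 28 d (standard error 0.10, adjusted p by limma = 4.97e-11), which left the mean 56.6% below that of 0 d. At 3, 5 and 7 d it missed the fold criterion, with log2 fold changes of -0.39, -0.35 and -0.56, and passed it after median-ratio scaling.

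The ratio of the eEF1A forms within a sample does not depend on the scaling between samples. Eef1a1 made up 35.2% ± 2.95 (SD, n = 4) of the summed FPKM of both genes at 0 d and 43.4% ± 3.75 at 1 d. At 3 d it held 63.4% ± 8.96, at 7 d 73.5% ± 3.52, and at 14 d 83.2% ± 0.545, before it reached 89.4% ± 1.66 by 28 d. By FPKM, Eef1a2 was thus the more abundant form in all samples of 0 d and 1 d, and Eef1a1 in all samples from 3 d on, though by little in the 3 d sample that stood apart, where its share was 50.2%. This order rests on the exon lengths that FPKM divides by, 2493 bases for Eef1a1 and 2084 for Eef1a2. In fragments, the highest counts at 1 d were 21280 for Eef1a1 and 19473 for Eef1a2.

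The log2 ratio of Eef1a1 to Eef1a2 was -0.88 ± 0.19 (SD, n = 4) at 0 d, 0.81 ± 0.54 at 3 d and 3.09 ± 0.27 at 28 d. Against 0 d it was higher by 0.50 (standard error 0.14) at 1 d, where the samples overlapped (two-sided exact permutation p = 0.0571). From 3 d on, the groups did not overlap, and the differences were 1.69, 1.94, 2.36, 3.19, 3.38 and 3.98 in order of time. Each of those had an exact permutation p of 0.0286, the smallest that 4 against 4 samples can give, and 0.0333 after adjustment over the 35 ratio tests made. At 3 d the log2 ratio was 0.01 in the sample that stood apart, against 0.94, 1.10 and 1.20 in the others. The 5 d samples ran from 0.83 to 1.18, so the lower mean at 3 d than at 5 d rests on that sample. Between neighbouring time points the ratio separated from 1 to 3 d, from 7 to 14 d, from 14 to 21 d and from 21 to 28 d (exact permutation p = 0.0286, adjusted over the 7 neighbours 0.05). It overlapped from 0 to 1 d, from 3 to 5 d and from 5 to 7 d. The summed FPKM of both forms was 976 ± 77.9 at 0 d and 932 ± 136 at 1 d, then 1354 ± 179 on day 3 and 2614 ± 178 on day 28.

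**Figure D2:**
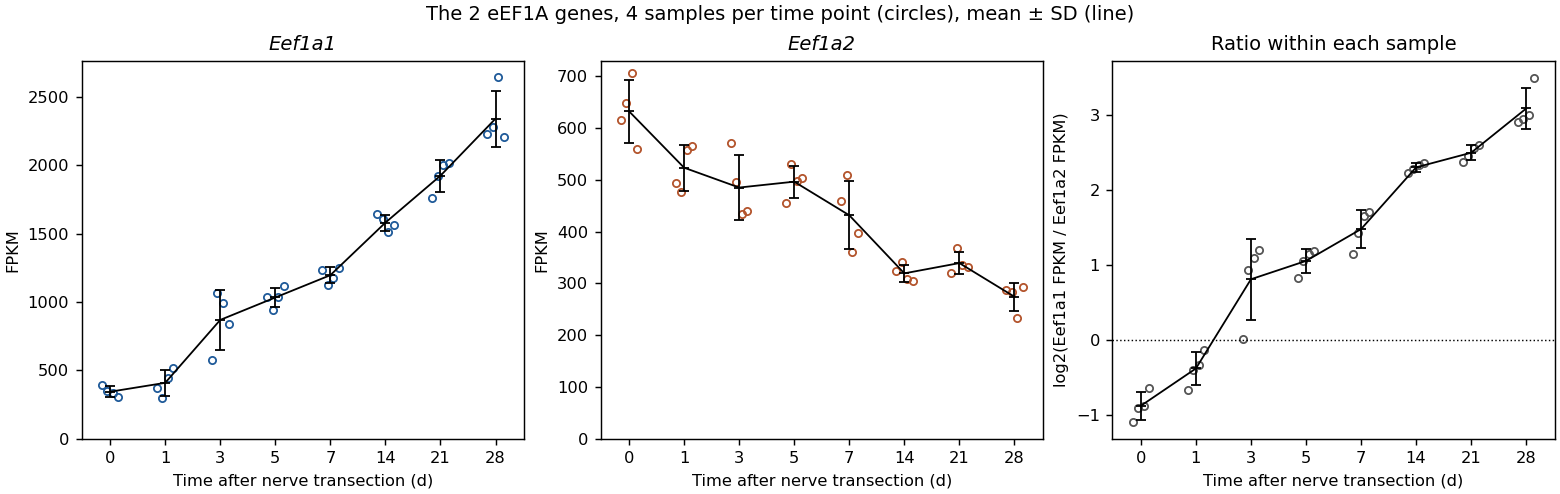
FPKM of Eef1a1 and of Eef1a2 and the log2 ratio of their FPKM within each sample (vertical axes) at 8 time points drawn at equal spacing, with circles for the 4 samples and a line for the mean ± SD. Eef1a1 climbs from 344 to 2339 FPKM, Eef1a2 goes from 633 to 274, and the ratio crosses 0, the level of equal FPKM, between 1 and 3 d.

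The reads of these forms can be told apart. Their longest open reading frames were 80.1% identical over 1389 aligned bases, with no identical run above 23 bases and no shared stretch of 150 bases in any transcript, which is the read length. The stretch before the start of each gene, from RefSeq (GRCm38.p6), is printed below since these genes moved in opposite directions. For Eef1a1 the RefSeq start lies inside the span given above, which is that of GENCODE M21 and reaches further upstream, so that the stretch precedes the RefSeq start and not the end of that span. Both hold 250 bases on the minus strand, at chr9:78481725-78481974 for Eef1a1 and chr2:181157016-181157265 for Eef1a2. In a window of 250 bases before to 50 after the start, neither held the E-box CACGTG, the cAMP response element TGACGTCA, the ETS site CCGGAAGT or the TATA box TATAAA on either strand, so that no base is in capitals.
Eef1a1: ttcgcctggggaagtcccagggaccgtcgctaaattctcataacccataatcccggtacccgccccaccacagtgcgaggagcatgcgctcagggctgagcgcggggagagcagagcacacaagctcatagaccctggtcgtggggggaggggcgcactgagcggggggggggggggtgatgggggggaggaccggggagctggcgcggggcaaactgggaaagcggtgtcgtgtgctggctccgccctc
Eef1a2: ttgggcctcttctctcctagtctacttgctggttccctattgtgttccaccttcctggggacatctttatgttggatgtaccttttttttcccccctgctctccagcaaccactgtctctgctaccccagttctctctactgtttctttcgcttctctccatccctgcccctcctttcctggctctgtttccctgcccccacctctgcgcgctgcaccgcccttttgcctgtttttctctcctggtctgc

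Most other elongation factors were higher too, by less than Eef1a1. Eef1b2, a subunit of the exchange factor that reloads eEF1A with GTP, read 41.0, 46.2, 51.3 and 53.4 FPKM at 0 d. At 3 d it read 69.9, 91.3, 92.5 and 93.3, with the low value in the sample that stood apart, and at 28 d it read 108, 110, 117 and 118. No sample from 3 d on overlapped those of 0 d. Eef1b2 rose by a log2 fold change of 0.84 at 3 d (standard error 0.08, adjusted p by limma = 1.4e-09), or 0.94 without that sample, and by 1.23 at 28 d (adjusted p = 7.15e-13), and all 6 calls from 3 d on held with median-ratio scaling.

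Eef2, the translocation factor itself, had 364, 411, 421 and 445 FPKM at 0 d and 610.4, 718, 723 and 755 at 3 d. Its samples at 28 d, from 709.7 to 814, again lay wholly above 0 d. Eef2 rose at each time point from 3 d on, by log2 fold changes of 0.69 to 0.89, and did so at none of them after median-ratio scaling, where the values were 0.39 to 0.54. Eef1g, another exchange factor subunit, rose from 5 d on with a mean of 136 FPKM at 0 d and 269 at 14 d (log2 fold change 0.99), and passed with median-ratio scaling at 14 d alone. Without the 3 d sample that stood apart, Eef1g was also called at 3 d (log2 fold change 0.61, adjusted p by limma = 8.57e-07). Eef1e1, which sits in the aminoacyl-tRNA synthetase complex, rose at 3, 5 and 7 d (log2 fold changes 0.88, 0.76 and 0.75), and at 3 d alone with median-ratio scaling. The smallest change in this role belonged to Eef1d, with a mean of 16.0 FPKM at 0 d and 22.6 at 28 d, whose log2 fold change of 0.48 stayed under the fold criterion. Of the 7 elongation factors, 4 were higher at 3 d (5 without that sample) and 5 at 5 and 7 d, and at 28 d 4 were higher and 1 was lower. Of all genes 13.2%, 14.9%, 15.4% and 14.2% were higher at these times, and 4.1% lower at 28 d. With median-ratio scaling 3, 2, 2 and 2 of the 7 were higher and 1 was lower each time.

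The promoter stretch of Eef2 is shown since it held 3 of the 4 motifs, with the E-box and the TATA box in capitals. They begin at positions -43 and -15 from the RefSeq start, and a cAMP response element begins at base 3 of the transcript and lies outside the bases printed. The stretch is on the plus strand at chr10:81176381-81176630.
Eef2: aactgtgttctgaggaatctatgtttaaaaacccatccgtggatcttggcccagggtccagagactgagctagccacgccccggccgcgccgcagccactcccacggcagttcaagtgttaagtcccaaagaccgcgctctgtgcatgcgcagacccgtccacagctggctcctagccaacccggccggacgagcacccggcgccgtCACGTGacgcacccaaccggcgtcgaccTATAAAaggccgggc

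Among the enzymes that act on the elongation factors, Eef2k changed in both directions. It encodes the kinase that phosphorylates eEF2 and slows elongation. Its samples read 9.72, 10.1, 11.7 and 13.3 FPKM at 0 d, 7.06, 7.82, 8.05 and 9.30 at 1 d, and 17.2, 19.1, 20.4 and 20.9 at 5 d. At 21 d they read 6.35, 6.43, 7.30 and 7.75. The 1 d, 21 d and 28 d samples, the last at 6.40 to 8.12, lay wholly below 0 d and the 5 d samples wholly above. At 3 and 7 d the samples spread widely and overlapped 0 d, from 9.96 to 19.0 and from 10.4 to 22.5. Eef2k rose at 5 d (log2 fold change 0.75, standard error 0.18, adjusted p by limma = 0.0011) and fell by 0.61 at 21 d (adjusted p = 0.0071). After median-ratio scaling the rise at 5 d was not called (0.38, limma adjusted p = 0.0799), and lower calls stood at 1, 21 and 28 d.

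Of the 5 lysine methyltransferase genes for eEF1A and eEF2, Eef1akmt1 and Eef1akmt4 were each called higher at 4 time points. These calls fell from 5 d on, where 11.8% to 15.4% of all genes tested were higher. Without the sample that stood apart, Eef1akmt4 was called at 3 d too. Eef1akmt4, the largest change of this role, held 1 to 9 fragments per sample at 0 d and at most 41 later, with 3 of its calls kept after median-ratio scaling, and it shares 143 exon bases with Alg3 on the opposite strand. Eef1akmt1 read 22.6 to 24.4 FPKM at 0 d, 17.0 to 19.9 at 1 d and 36.0 to 42.9 at 7 d, and was called higher at 5, 7, 21 and 28 d and at none of them after median-ratio scaling. Eef1akmt3, with 0 to 8 fragments per sample, had the smallest change in this role, and neither Eef1akmt2 nor Eef2kmt was called at any time point.

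The largest change of any member was that of Eif4ebp1 (ENSMUSG00000031490; chromosome 8, 27260329 to 27276674, plus strand), which encodes an inhibitor of eIF4E that mTOR complex 1 switches off. It read 19.4, 19.4, 19.7 and 21.7 FPKM at 0 d, 82.7, 85.0, 98.1 and 105 at 1 d, and 177, 203, 237 and 273 at 3 d. By 5 d the samples were back between 72.9 and 76.2, and at 28 d they read 30.6, 32.6, 33.4 and 34.6. Every sample post denervation lay above every 0 d sample. Eif4ebp1 rose by a log2 fold change of 2.15 at 1 d (standard error 0.11, adjusted p by limma = 9.69e-15) and 3.39 at 3 d (adjusted p = 9.44e-20), an 11.1-fold higher mean. Without the 3 d sample that stood apart, the latter was 3.29. The change was 1.83 at 5 d, 1.04 at 14 d and 0.68 at 28 d, and with median-ratio scaling the calls at 21 and 28 d were lost (0.33 and 0.31).

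Its paralogs did not share that course. Eif4ebp2, the related inhibitor, had 34.8 to 44.0 FPKM at 0 d, 35.5 to 39.5 at 3 d, 18.3 to 21.1 at 21 d and 18.8 to 24.1 at 28 d. It fell by 0.92 on the log2 scale at 21 d and by 0.82 at 28 d (standard error 0.11, adjusted p by limma = 4.5e-07), and with median-ratio scaling was called lower from 7 d on. Eif4ebp1 made up 34.4% ± 1.14 (SD, n = 4) of the summed FPKM of the pair at 0 d, 85.3% ± 2.59 at 3 d and 60.7% ± 3.44 at 28 d. The groups did not overlap at any time point, with a log2 ratio higher by 3.48 at 3 d and 1.56 at 28 d (exact permutation p = 0.0286, adjusted 0.0333). Eif4ebp3 stayed under an FPKM of 1 in all samples and Eif4enif1, which carries eIF4E into the nucleus, read 4.71 FPKM at 0 d and 6.75 at 1 d, and neither was called.

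The target of these inhibitors was called lower at 6 of the 7 time points. Eif4e (ENSMUSG00000028156; chromosome 3, 138526179 to 138559696, plus strand) encodes the cap-binding protein, and Eif4e, Eif4ebp2, Eif5 and others outside the naming rule of the methods were picked after their values were seen. It read 21.1, 21.7, 22.1 and 23.5 FPKM at 0 d, 12.9 to 14.2 at 1 d, 14.4, 15.1, 15.5 and 16.4 at 3 d, and 12.9, 13.9, 14.3 and 14.3 at 28 d. Each sample post denervation was below each 0 d sample. Eif4e fell by 0.67 on the log2 scale at 1 d (standard error 0.06, adjusted p by limma = 1.32e-10) and by 0.59 to 0.78 from 5 d on. At 3 d its log2 fold change of -0.50 (limma adjusted p = 1.3e-08) missed the fold criterion, and after median-ratio scaling it was called lower at all 7 time points, the only member of which that held, where 2.19% of all genes were.

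Eif4e3, a cap-binding relative, had the smallest change of the eIF4 genes as deposited, at 10.2 FPKM at 0 d and 8.25 at 28 d. With median-ratio scaling it was called lower at 14, 21 and 28 d, with log2 fold changes of -0.61 to -0.62. The log2 ratio of Eif4e to Eif4e3 was lower at every time point than at 0 d, with differences of -0.55 to -0.31, and its samples separated from 0 d at 5, 7 and 14 d (exact permutation p = 0.0286, adjusted 0.0333) and not at 1, 3, 21 and 28 d (p = 0.0571).

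**Figure D3:**
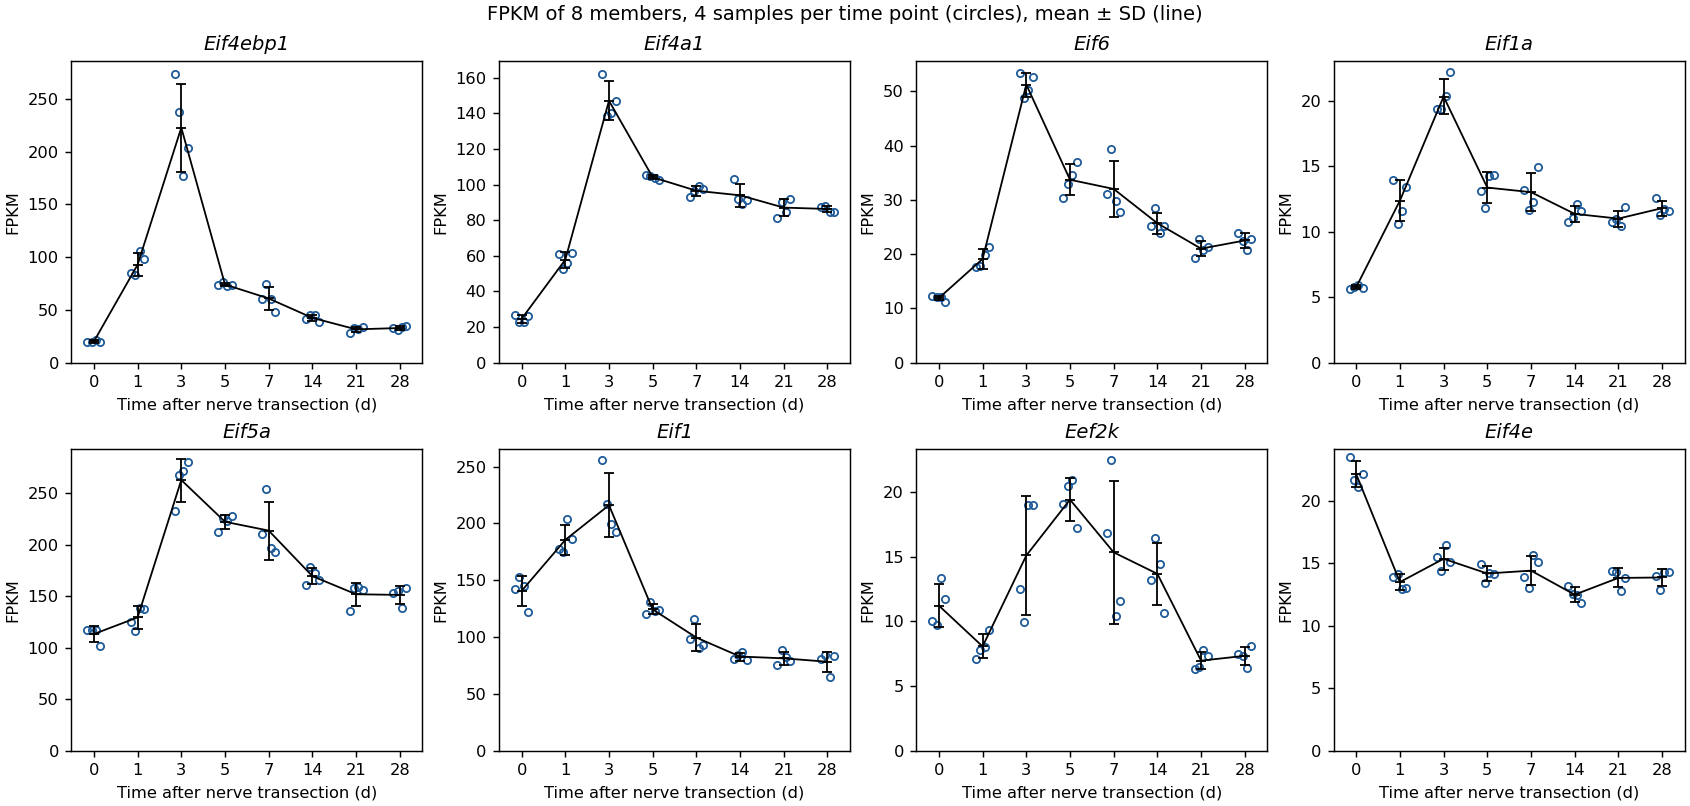
FPKM (vertical axes) of 8 translation factors at 8 time points drawn at equal spacing, with circles for the 4 samples and a line for the mean ± SD. Eif4ebp1, Eif4a1, Eif6, Eif1a, Eif5a and Eif1 peak at 3 d, at means of 223, 147, 51.3, 20.3, 263 and 216, Eef2k peaks at 5 d, and Eif4e drops from 22.1 to 13.5 by 1 d.

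The helicase subunit moved most within eIF4F. Eif4a1 (ENSMUSG00000059796; chromosome 11, 69666936 to 69672423, minus strand) read 22.6, 22.8, 26.1 and 26.8 FPKM at 0 d. It reached 52.5, 55.8, 61.2 and 61.8 at 1 d and 139, 140.3, 147 and 162 at 3 d, and it was still at 84.8, 84.9, 87.3 and 88.2 at 28 d. No later sample came near the 0 d range. Eif4a1 rose by a log2 fold change of 1.20 at 1 d, 2.53 at 3 d (standard error 0.06, adjusted p by limma = 2.09e-22) and 1.77 at 28 d (adjusted p = 4.49e-19). It was the only member called higher at all 7 time points with median-ratio scaling. As deposited, 7 members were: Eif1a, Eif3a, Eif3d, Eif4a1, Eif4a3, Eif4ebp1 and Eif6.

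The processed pseudogene Eif4a-ps4 shares stretches of 150 bases with Eif4a1 and had a mean of 30.1 FPKM at 0 d and 185 at 3 d. The way the authors' counting split reads between the copies is not given in the sources used here. Summed over both, the library-scaled fragments were higher at 3 d by 2.59 on the log2 scale, against 2.58 for Eif4a1 alone. The promoter stretch of Eif4a1 is printed for its E-box, in capitals, which begins at position -189 from the RefSeq start. It is on the minus strand at chr11:69672424-69672673.
Eif4a1: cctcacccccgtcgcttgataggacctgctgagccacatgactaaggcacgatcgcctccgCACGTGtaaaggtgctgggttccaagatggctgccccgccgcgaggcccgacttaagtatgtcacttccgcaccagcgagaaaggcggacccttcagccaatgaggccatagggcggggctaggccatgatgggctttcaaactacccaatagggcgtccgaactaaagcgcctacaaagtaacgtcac

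Eif4a2, the form of the helicase that was more abundant at 0 d, rose at 5 and 7 d only (log2 fold changes 0.77 and 0.80) and not after median-ratio scaling. Eif4a1 made up 20.2% ± 0.545 (SD, n = 4) of the summed FPKM of the pair at 0 d, 50.2% ± 2.02 at 3 d and 40.5% ± 1.97 at 28 d. The log2 ratio exceeded that of 0 d by 0.69, 1.99 and 1.43 on days 1, 3 and 28, with no overlap at any time point (exact permutation p = 0.0286, adjusted 0.0333). The scaffold genes also shifted against each other. Eif4g3 read 13.7 to 19.1 FPKM at 0 d and 30.1 to 34.1 at 3 d and rose from 1 to 14 d, with a log2 fold change of 0.98 at 3 d, while median-ratio scaling left the calls at 3 and 7 d. Eif4g1 read 69.7 to 84.8 FPKM at 0 d and 100.1 to 108 at 3 d and was called at no time point. The log2 ratio of Eif4g1 to Eif4g3 differed from 0 d by -0.56 at 3 d, -0.89 at 7 d and -0.54 at 28 d, again with no overlap (exact permutation p = 0.0286, adjusted 0.0333). Eif4a3, a helicase of the exon junction complex, was called higher at all 7 time points, but with median-ratio scaling at 3 and 7 d alone, with at most 16.5 FPKM at 0 d and means of 29.7 at 3 d and 24.7 at 28 d. Of the 11 eIF4 genes tested, 5 were higher at 3, 5 and 7 d and 3 at 28 d, with Eif4h (0.59) called at 3 d as well without the sample that stood apart, while 1, Eif4e, was lower at all of these but 3 d. Against this stood 13.2%, 14.9%, 15.4% and 14.2% of all genes higher. With median-ratio scaling 3, 1, 3 and 1 of the 11 were higher on days 3, 5, 7 and 28, and 1, 1, 1 and 2 lower.

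Factors that scan for the start codon split by gene. Eif1 (ENSMUSG00000035530; chromosome 11, 100319885 to 100322096, plus strand) encodes the factor that keeps start codon selection strict. It read 122, 143, 145 and 153 FPKM at 0 d, 192, 199, 217 and 256 at 3 d, 120.5 to 131 at 5 d, and 65.2, 80.9, 83.1 and 84.0 at 28 d. The 1 and 3 d samples were all above and the 7, 14, 21 and 28 d samples all below those of 0 d. Eif1 rose by a log2 fold change of 0.61 at 3 d (standard error 0.09, adjusted p by limma = 1.55e-06) and fell by 0.75, 0.78 and 0.84 at 14, 21 and 28 d (adjusted p = 6.93e-09 at 28 d). Without the 3 d sample that stood apart, the rise was 0.53 and not called, nor was it called with median-ratio scaling (0.38), which called Eif1 lower at 7 d too.

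Eif1a, whose product opens the small subunit for scanning, read 5.62 to 5.96 FPKM at 0 d, a mean of 12.4 at 1 d, 19.3 to 22.2 at 3 d and 11.3 to 12.6 at 28 d. It rose by a log2 fold change of 1.65 at 3 d (limma adjusted p = 1.17e-16) and 0.92 at 28 d, and with median-ratio scaling was called from 1 to 7 d. Its X-linked paralog Eif1ax had the smallest change of this role, with means of 25.2 to 27.5 FPKM in all 8 groups. The F test did not pass for Eif1ax as deposited, but did with median-ratio scaling. Eif5, the activator of GTP hydrolysis by eIF2, read 33.2 to 37.6 FPKM at 0 d, 58.2 to 68.7 at 1 d, 51.5 to 59.7 at 3 d and 33.4 to 35.3 at 5 d, and was called higher at 1 and 3 d, with the first of these kept after median-ratio scaling. Eif5b, which joins the ribosomal subunits, rose from a mean of 10.3 FPKM at 0 d to 24.5 at 5 d (log2 fold change 1.18) and was called from 3 to 21 d, or from 3 to 7 d with median-ratio scaling. Eif5b shares 1643 exon bases with Rev1 on the opposite strand, whose mean FPKM was 3.98. Medians of this role of 7 genes were 0.61 at 3 d and 0.09 at 28 d as deposited, and 0.38 and -0.24 with median-ratio scaling, so that the late direction depended on the scaling.

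All 3 core subunits of eIF2 were higher at 3 d, where 13.2% of all genes were as deposited and 9.02% with median-ratio scaling. The alpha subunit gene Eif2s1, whose product is the one phosphorylated under stress, had 10.5 to 12.9 FPKM at 0 d and 21.7 to 26.2 at 3 d, the gamma subunit Eif2s3x had 19.6 to 21.6 and 39.6 to 44.6, and the beta subunit Eif2s2 had 29.7 to 38.0 and 66.7 to 89.5. Their log2 fold changes at 3 d were 0.99, 0.99 and 1.07 and all held with median-ratio scaling. Eif2s1 and Eif2s3x stayed higher to 28 d (0.59 and 0.66) as deposited, with 3 d the only call of either after median-ratio scaling, whereas Eif2s2 was not called at any other time point and read 31.2 to 35.4 FPKM at 28 d. Eif2s2 shares stretches of 150 bases with the pseudogene Gm9892, which had 33.2 FPKM at 0 d and 78.4 at 3 d. Eif2s3y, the Y-linked gamma subunit, had the largest change of the role (log2 fold change 1.13 at 7 d, standard error 0.23). It was called from 3 to 21 d, and at 7 d alone with median-ratio scaling. Its 1 d samples fell apart into 7.84 and 9.84 FPKM against 22.4 and 22.8. The smallest change belonged to Eif2a, a factor apart from the eIF2 complex despite its name, which went from 12.7 FPKM at 0 d to 17.5 at 5 d and was not called.

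The exchange factor eIF2B recharges eIF2 with GTP. Of its 5 subunit genes 4 were higher at 3 d and 5 d, where 13.2% and 14.9% of all genes were, and 1 at 28 d, where 14.2% were. Eif2b4 had 15.5 to 19.4 FPKM at 0 d, 36.6 to 45.1 at 3 d and 21.5 to 24.7 at 28 d, and rose by a log2 fold change of 1.09 at 3 d (standard error 0.07, adjusted p by limma = 4.09e-13). Eif2b2 rose from 3 d on and was the only subunit called at 28 d (0.71). Eif2b1 was called at no time point, with 14.7 FPKM at 0 d and 21.4 at 7 d. After median-ratio scaling 2 of the 5 were higher at 3 d and 0 at 5 d or later.

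Of the 4 kinases that phosphorylate eIF2, 1 was called, at 1 time point, 7 d, where 15.4% of all genes tested were higher. Eif2ak2, the kinase that senses double-stranded RNA, was called at 7 d alone, with 1.76 to 2.25 FPKM at 0 d and 2.66 to 4.66 at 7 d (log2 fold change 0.62, standard error 0.16, adjusted p by limma = 0.00213), and not with median-ratio scaling. Eif2ak4, the sensor of amino acid shortage, read 0.845 to 1.31 FPKM at 0 d and 1.96 to 2.22 at 1 d without overlap, and its log2 fold change of 0.57 (limma adjusted p = 1.12e-05) missed the fold criterion. The mean of Eif2ak4 at 1 d was 1.92 times that at 0 d, and the 1 added before the logarithm lowers the fold of genes with an FPKM near 1. For Eif2ak3, the kinase of the endoplasmic reticulum, log2 fold changes ran from 0.01 to 0.21, and the F test did not pass.

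In eIF3, the large scaffold of the small subunit, most subunit genes were higher at 3 to 7 d as deposited, and at 3 d alone after median-ratio scaling. Of 14 subunit genes, 4, 11, 10, 12 and 7 were higher on days 1, 3, 5, 7 and 28, against 6.34%, 13.2%, 14.9%, 15.4% and 14.2% of all genes, and 0 were lower at any time point, also by limma at an unadjusted p under 0.05. Their median log2 fold change was 0.85 at 3 d and 0.64 at 28 d. With median-ratio scaling 8 of the 14 were higher at 3 d, where 9.02% of all genes were, 3 at 5 d (6.71%), 4 at 7 d (7.16%) and 1 at 28 d (6.59%), and the medians were 0.64 and 0.27. Eif3l, the subunit with the largest change, read 17.1, 17.6, 18.5 and 18.9 FPKM at 0 d, 36.6, 36.7, 37.9 and 38.5 at 3 d, and 42.6, 42.7, 43.4 and 46.5 at 28 d. It was higher in all samples from 1 d on than in those of 0 d, and its log2 fold change was 1.01 at 3 d and 1.23 at 28 d (standard error 0.05, adjusted p by limma = 7.98e-17). Eif3b went from 31.6 FPKM at 0 d to 73.0 at 3 d and 57.6 at 28 d, and Eif3c from 54.2 to 123 and 94.3. With median-ratio scaling Eif3b was called from 3 to 14 d and Eif3c at 3 and 5 d. Eif3g was higher from 3 d on, or from 3 to 21 d with that scaling, with 19.0 to 22.8 FPKM at 0 d, 43.9 to 46.3 at 3 d and 38.8 to 44.0 at 28 d. Eif3a, the largest subunit, was already at 39.9 to 45.7 FPKM at 1 d, from 21.6 to 24.1 at 0 d, and of its 7 calls median-ratio scaling left those at 1 and 3 d. Eif3e and Eif3i were called at 1 time point each and Eif3m at 2. Eif3h, with the smallest change, read 92.3 FPKM at 0 d and 127 at 14 d and was not called. Eif3j1 and Eif3j2 were both higher from 1 to 7 d as deposited, but their longest open reading frames were identical over all 786 aligned bases, so that reads of the pair cannot be assigned with certainty. They enter the counts of higher genes on these days, and all other counts, as 2 genes, though their values are not separate observations.

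Eif6 and Eif5a were among the strongest of the 3 d responses. Eif6 (ENSMUSG00000027613; chromosome 2, 155819832 to 155826925, minus strand) encodes a factor that keeps the large ribosomal subunit from joining early. It read 11.3, 12.1, 12.1 and 12.2 FPKM at 0 d, 17.6, 17.7, 19.8 and 21.4 at 1 d, 48.7, 50.2, 52.7 and 53.5 at 3 d, and 20.8, 22.5, 22.9 and 24.0 at 28 d. Its log2 fold change was 2.02 at 3 d (standard error 0.08, adjusted p by limma = 8.88e-18) and 0.86 at 28 d, and with median-ratio scaling it was called from 3 to 14 d. Eif5a, whose product carries the rare amino acid hypusine and helps ribosomes through difficult stretches, read 102, 117, 117 and 117 FPKM at 0 d and 232, 267, 271 and 279.9 at 3 d. It rose by 1.21 at 3 d (limma adjusted p = 2.06e-13), 0.97 at 5 d and 0.90 at 7 d, and at 28 d its 0.41 missed the fold criterion. With median-ratio scaling it was called at 3 d alone. Its paralog Eif5a2 had a mean of 1.07 to 1.23 FPKM in all 8 groups and was not called.

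**Figure D4:**
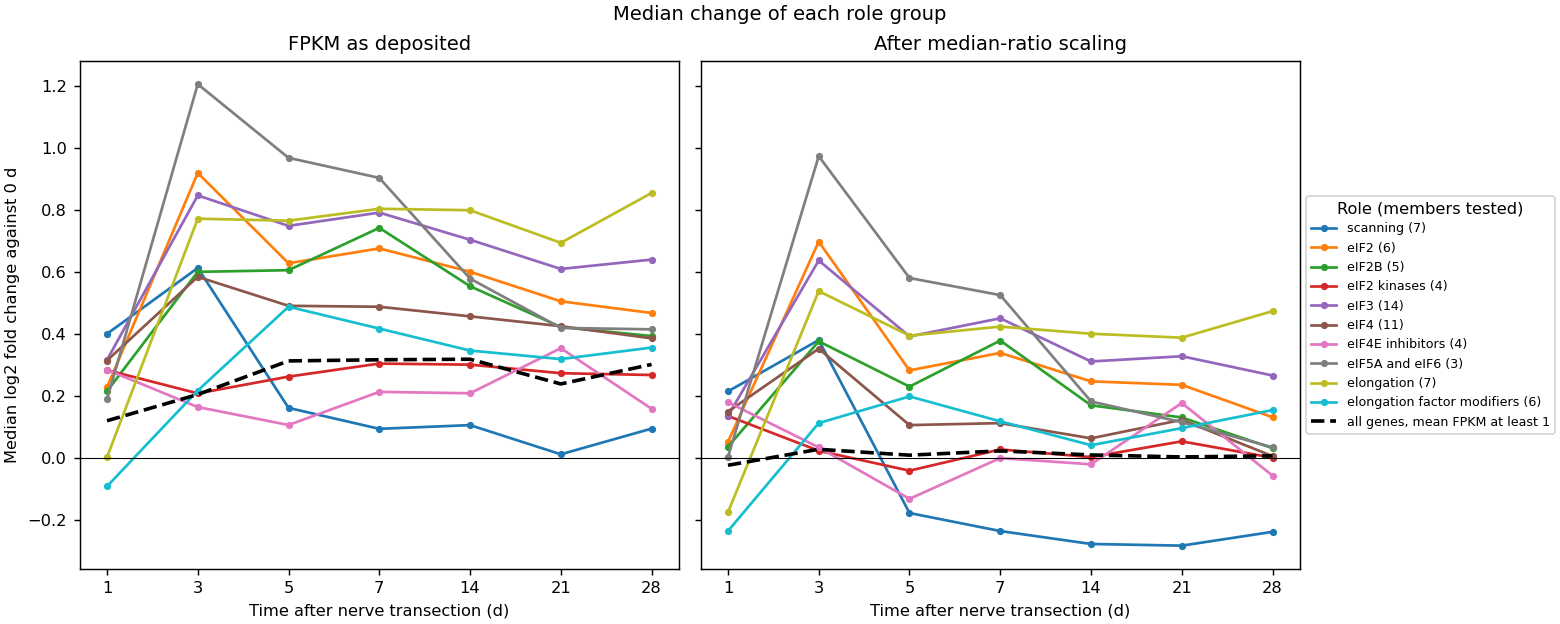
Median log2 fold change against 0 d of the tested members of each of the 10 roles (lines) and of all genes whose FPKM averaged 1 or more (dashed), at 7 time points drawn at equal spacing, for FPKM as deposited (left) and after median-ratio scaling (right). The dashed line lies at 0.12 to 0.32 on the left and near 0 on the right, eIF5A and eIF6, eIF2 and eIF3 lead at 3 d on both sides, and elongation ends highest at 28 d.

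The late muscles were also compared with the early ones without use of the 0 d samples. Between 28 d and 3 d, 2 members were higher and 14 were lower, against 7.46% and 4.54% of all genes tested. These members were called the same way with median-ratio scaling, which added 3 lower ones (5.43% and 6.28% of all genes). Eef1a1 was higher by a log2 fold change of 1.46 and Eef1akmt1 by 0.79. The lower members were led by Eif4ebp1 (-2.71), Eif1 (-1.45), Eif6 (-1.15) and Eif2s2 (-1.12). Eef1a2 (-0.82) was the only one of them that had not been called higher at any time point besides Eif4ebp2 (-0.79). The 28 d samples of Eif3l were above and those of Eif3b and Eif3c below their 3 d samples, though none of these reached the fold criterion.

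The partners of these factors were described by lists of 49 further genes, all of which were tested. Of them, 8, 19, 17 and 10 were higher on days 1, 3, 7 and 28, where 6.34%, 13.2%, 15.4% and 14.2% of all genes were, and 0 were lower at any of the 7 time points as deposited, where limma had 1 to 6 of them lower at an unadjusted p under 0.05. With median-ratio scaling 7 were higher and 1 lower at 1 d (4.14% and 4.69% of all genes), 15 and 2 at 3 d (9.02% and 9.17%) and 4 and 1 at 7 d (7.16% and 7.92%), and 2 were higher and 3 lower at 28 d (6.59% and 8.11%). Of the 14 genes that signal to the factors, 8 were higher at 3 d and 7 at 28 d, or 7 and 2 with median-ratio scaling. The kinase gene Mknk2, whose product phosphorylates eIF4E, went from a mean of 63.2 ± 6.75 FPKM (SD, n = 4) at 0 d to 738 ± 35.8 at 3 d and 167 ± 12.9 at 28 d (log2 fold change 3.53 at 3 d, adjusted p by limma = 1.51e-20). Ddit4, an inhibitor of mTOR complex 1, had 7.02 ± 0.623 FPKM at 0 d and 64.3 ± 31.7 at 1 d, then 41.9 ± 4.41 on day 3 and 9.25 ± 2.12 on day 28. Ppp1r15a, the phosphatase subunit that reverses eIF2 phosphorylation, had 9.63 ± 0.605 at 0 d and 63.9 ± 1.71 at 1 d, then 51.9 ± 13.6 on day 3. Both were called at 1, 3, 5 and 7 d, at 5 and 7 d only as deposited, and not at 28 d, and Ppp1r15a was also called at 14 d as deposited.

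Mtor itself took a slower course, from 4.68 ± 0.434 FPKM at 0 d to 15.6 ± 1.30 at 14 d and 14.5 ± 1.53 at 28 d (log2 fold change 1.55 at 14 d), and held with median-ratio scaling (1.20). Pabpc1, the poly(A)-binding protein that meets eIF4G, went from 16.3 ± 1.88 FPKM at 0 d to 41.8 ± 6.53 at 3 d (log2 fold change 1.30), and with median-ratio scaling was called at 3 and 5 d alone. The single lists stand against 13.2%, 14.9%, 15.4% and 14.2% of all genes higher on days 3, 5, 7 and 28. Of the termination and recycling genes 3 of 6 were higher at 3, 5 and 7 d (3, 1 and 1 with median-ratio scaling), led at 3 d by Etf1, the release factor (log2 fold change 1.28), and none at 28 d. Among poly(A) and cap partners 3 of 7 were higher at 3 d, and among initiation helpers 3 of 5. With median-ratio scaling these were 3, with 1 lower, and 1. The 9 mitochondrial translation factors had 0 calls at any time point against 0 d as deposited, where limma had at most 4 higher and 4 lower at an unadjusted p under 0.05. With median-ratio scaling 1 of the 9 was lower at 3 d and 1 at 14 d, where 9.17% and 7.55% of all genes were. Their median log2 fold change was 0.01 to 0.11 as deposited and -0.34 to -0.09 with median-ratio scaling, so that its direction depended on the scaling. Diphthamide enzymes, which modify eEF2, had 1 of 6 higher at 3 d on both scales, and the hypusine enzymes, which modify eIF5A, had 1 of 2, as deposited only.

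Promoter windows from RefSeq were at hand for 52 members and 13949 protein-coding genes in all, 1 window per gene of 250 bases before to 50 after the start. The E-box CACGTG was in 11 of the 52 (21.2%), against 8.99% of all windows. They included Eif4a1, Eef2, Eef2k, Eif3a, Eif3f, Eif3k and Eef1akmt4, but also Eif1b, Eif4h, Eif4g1 and Eif5a2, which were called at no time point with all samples in the fit. The ETS site CCGGAAGT, searched on both strands, was in 8 (15.4%, against 6.41%). They were Eef1b2, Eif2b2, Eif2b4, Eif3d, Eif3l and Eif4e2, but also Eif2ak1 and Eif5a2, which were called at no time point. TATAAA was in 5 (9.62%, against 9.43%) and the cAMP response element TGACGTCA, found in Eef2 alone, in 1.92% against 2.72%. These are matches of letters in a window and no test was made of them.

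Some values are less certain because annotated exons overlap or copies exist, and the strand setting of the counting is not given in the sources used here. Opposite-strand exon overlap involved 428 bases of Eif1ad with Banf1, 487 bases of Eif2ak1 with Aimp2 and 204 bases of Eif2b4 with Snx17. Among copies, Gm13456 had 8.02 FPKM at 0 d and 56.5 at 28 d beside Eef1a1, and Gm4366 had 24.7 and 45.8 beside Eef1g. Summing the fragments of member and copy left the log2 difference at 28 d at 2.77 for Eef1a1 and at 0.86 for Eef1g, as without the copy.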

How the data were processed

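The GEO series holds RNA-seq of 32 mouse GAS muscles at 8 time points, 4 each. The authors deposited 1 table of FPKM values per gene. Per the submitters' processing notes and the study's methods, reads were base-called with CASAVA and aligned with HISAT2 2.1.0 to GRCm38, with a read length of 150 bases. The counter, its annotation and its strand setting are not given in the sources used here. The columns C1 to C4 were taken as 0 d, the only time point without a D column, and columns could be tied to a group but not to single samples. The study's text calls the samples biologically independent, without tying columns to animals, and p-values measure the spread between these samples.

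The steps of FPKM gave whole fragments for 99.3% of values under 200 fragments (tolerance 0.02), and the depth recovered from them was 14199902 to 17561584 fragments per sample. At these depths, members with few fragments carry the largest counting error.

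Genes with an FPKM of 0.1 or more in 4 or more samples were tested on log2(FPKM + 1), a scale that understates fold changes of low genes, with limma 3.58.1 (R 4.3.3) in 1 fit of all samples with a variance trend and Benjamini-Hochberg adjustment. Ratios within a sample were compared by a two-sided exact permutation test. Python 3.11.15, numpy 2.4.6, pandas 2.3.3, scipy 1.17.1, matplotlib 3.10.9 and biopython 1.88 were used. Symbols, positions and biotypes came from GENCODE M21, and 33356 of the 33397 genes matched. On simulated data with independent normal noise for 3 d against 0 d, the fit recovered 192 of 200 changed genes. It called 5 unchanged ones, of 22021 genes. The 200 had a mean FPKM of at least 2 and were moved by 1 on the log2(FPKM + 1) scale. Recovery of lower genes, or of a 2-fold change in FPKM itself, was not tested.

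The members and all lists were chosen with earlier results of these data known. Named genes were Eef1a1, Eef1a2 and Eif4ebp1, the largest and the smallest change of each role, the 15 largest changes, members called in both directions and the 5 largest of the partner genes, beside others said to be chosen after their values were seen. Alternatives were other scalings, filters, pseudocounts, thresholds and fits leaving out each sample and, between 28 d and 3 d, a replicate block.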

Additional observations from a re-analysis of the deposited data

Results flagged for a closer look

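In 8 of the 144 groups of 4 samples examined, 136 of FPKM for 17 members and 8 of the Eef1a1 to Eef1a2 ratio, 1 sample lay far from the other 3 by Dixon's test, and chance alone flags about 1 in 20 groups. At 28 d, Eef1a1 had a sample at 2643 FPKM against 2206 to 2279.9 in the others, Eif1 one at 65.2 against 80.9 to 84.0, and Eif3b one at 54.0 against 58.5 to 59.2, all in the same library. Eef1b2 at 3 d had a sample at 69.9 FPKM against 91.3 to 93.3, in the library that stood apart. Eif4a1 at 14 d had a sample at 103 FPKM against 89.4 to 91.7, and Eif4ebp1 at 0 d one at 21.7 against 19.4 to 19.7. Eif5a had a sample at 102 FPKM at 0 d against 117 in the others and one at 135 at 21 d against 156 to 159.

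The change from 0 d differed between 28 d and 3 d, by limma on the difference itself, for 10 of the named members. The log2 fold change of 28 d against 3 d was 1.46 for Eef1a1, -0.82 for Eef1a2, -0.91 for Eef2k, -1.45 for Eif1 and -0.74 for Eif1a. It was -0.75 for Eif2b4, -0.76 for Eif4a1, -2.71 for Eif4ebp1, -0.79 for Eif5a and -1.15 for Eif6.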

How the results depend on the processing

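Beside 12, 35, 35, 37, 26, 23 and 22 members higher at 1, 3, 5, 7, 14, 21 and 28 d, with 1, 0, 1, 1, 3, 5 and 4 lower, the alternatives that moved a count by over 1.5 times gave these values, and apart from the thresholds, which act by construction, the cause was not tested. Without a fold threshold, 34, 53, 49, 48 and 47 were higher at 1, 3, 14, 21 and 28 d and 3, 2, 2, 4 and 5 lower at 1, 3, 5, 7 and 14 d, and 9 were higher and 33 lower between 28 d and 3 d. Of all genes tested, 20.4%, 29.0%, 38.0%, 31.7% and 37.8% were higher and 9.01%, 14.3%, 9.52%, 10.1% and 9.25% lower at these times. Between 28 d and 3 d the shares were 23.9% and 12.5%. With a 2-fold threshold, 2, 12, 9, 11, 7, 4 and 4 were higher, 0 lower at 1, 5, 7, 14 and 21 d and 1 at 28 d, and 1 higher and 4 lower between 28 d and 3 d. Of all 22071 genes tested, 394, 1118, 1066, 1154, 1053, 810 and 998 were higher by that rule. At 1, 5, 7, 14, 21 and 28 d, 196, 376, 425, 396, 396 and 410 were lower. Between 28 d and 3 d, 531 were higher and 348 lower. Median-ratio scaling gave 6, 11, 15, 10, 6 and 4 higher at 1, 5, 7, 14, 21 and 28 d and 2, 2, 2, 4 and 5 lower at 1, 3, 5, 7 and 14 d. Quantile normalization gave 23, 15, 19, 12, 10 and 11 higher from 3 d on and 2, 1, 2 and 5 lower at 1, 3, 7 and 14 d. Of all 22112 genes tested there, 1910, 1604, 1664, 1562, 1520 and 1597 were higher and 880, 1966, 1670 and 1537 lower. TPM rescaling gave 46, 35 and 35 higher at 14, 21 and 28 d, 0 lower at 1, 5 and 7 d and 3 lower at 21 d. On that scale 6746, 4766 and 6280 of all 25285 genes tested were higher at 14, 21 and 28 d. At 1, 5, 7 and 21 d, 625, 809, 875 and 909 were lower. The median log2 fold change over the 11943 genes was 0.56 at 14 d with TPM rescaling. Without mitochondrially encoded genes, 1 was lower at 3 d and 3 at 7 d, beside 1589 and 1162 of all 22070 genes tested.

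Leaving out each sample in turn moved the lower count to 0 to 1 at 5 d and 0 to 2 at 7 d, through 2 samples of 0 d and 1 of 5 d, and moved no other count by over 1.5 times. The other 129 values of the counts stayed within that range. With log2(FPKM + 1), the Eif4e to Eif4e3 difference was -0.40 at 3 d and -0.36 at 28 d, at an adjusted exact permutation p of 0.0313 in place of 0.0571. Of the values of 29 named members, 63 lost and 52 gained a call under other settings and 11 and 20 without 1 sample, of 2094 and 1856, and no called value changed sign. Columns post denervation carry the letters a to d, which no label ties to an animal or batch. With that letter as a replicate block, 2 members were higher and 14 lower between 28 d and 3 d, as without it. Deviations of same-letter samples of these days correlated at -0.10 to 0.02, and 0 of 4 samples were closest to their own letter, so the letters were not taken as pairs. Against 0 d no paired analysis was possible because its columns are numbered 1 to 4 and no source ties the numbers to the letters. Ratios of recovered fragments differ from FPKM ratios by a constant per pair and were not run separately. FPKM depth limits Eef1akmt3, Eef1akmt4, Eif4ebp3 and Eif4e1b, which held few fragments.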
